A study of Homo sapiens with 12 samples.

Results

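The collagen genes were followed in 12 mRNA libraries of Beas-2b cells, an established line of human bronchial epithelial cells. The genes were taken by name and biotype: a protein-coding gene whose symbol is COL, a number, A and a number. This gave 44 collagen genes among 58735 annotated genes, of which 19951 are protein-coding. ANT1 knockout cells received bleomycin or control medium, and so did wild type cells, with 3 libraries in each of the 4 groups. Bleomycin breaks DNA and was given at 10 mg/ml for 2 days to make the cells senescent, per the labels. ANT1, encoded by SLC25A4, is a carrier that swaps ADP for ATP at the inner membrane of mitochondria, and its gene had been targeted with CRISPR. The design text calls the 3 libraries of a group biological replicates. Knockout clones were made, and how many stand behind the libraries is not stated here. Effects of genotype and of clone cannot be told apart. The series title asks what role ANT1 has in pulmonary fibrosis, a disease in which collagen builds up in the lung.

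Collagens are proteins made of 3 chains wound into a triple helix, and each gene encodes a chain. Fibrillar collagens (types I, II, III, V, XI, XXIV and XXVII) form the fibers of connective tissue. Collagen IV forms the sheet of the basement membrane under epithelia, collagen VII anchors that sheet to the tissue below, and collagen XVII spans the membrane of basal epithelial cells. FACIT collagens such as type XII sit on fibril surfaces, and collagen VIII forms short-chain networks.

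The summed level of collagen mRNA overlapped between bleomycin and control libraries, while single collagen genes moved up and down. The 11 genes that rose in both genotypes came from several classes: COL7A1 and COL17A1, the collagen IV genes COL4A5 and COL4A6, COL15A1, the FACIT genes COL9A3 and COL16A1, the fibrillar COL2A1, COL24A1 and COL27A1, and COL26A1. COL2A1 and COL26A1 passed the low-count filter only through the bleomycin libraries, which favoured a call of higher. The knockout call of COL9A3 was lost in 8 of 12 fits that left out a library. The COL24A1 call was lost in 2 of 12 such fits in each genotype. The collagen IV genes other than COL4A5 and COL4A6 were not called higher. COL12A1, COL8A1, COL8A2 and COL5A2 fell in both genotypes. Genotype was called for COL8A1, which was 2.03-fold higher in knockout cells under bleomycin and 1.75-fold higher in control medium. Leaving out any 1 of the 3 wild type control libraries ended the control medium call, and so did a fit in which only those 2 groups entered. No collagen gene passed the test for a different bleomycin response between the genotypes.

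The stretches of DNA just before the starts of 4 genes are shown because these genes gave the largest rise apart from 2 genes with few counts (COL17A1), the highest bleomycin level among genes that rose (COL7A1), a pair that rose from neighbouring starts (COL4A5, next to COL4A6) and a fall in both genotypes (COL12A1). The sequences are from RefSeq on GRCh38.p14, written 5′ to 3′ on the strand of the gene. Capitals mark matches on either strand to GGGCGG (bound by Sp factors), to the box CCAAT, to the TATA box TATAAA, or to CAGAC (part of a Smad binding site). No 2 matches of different motifs overlapped in them.
COL17A1, chr10:104085958-104086130, minus strand: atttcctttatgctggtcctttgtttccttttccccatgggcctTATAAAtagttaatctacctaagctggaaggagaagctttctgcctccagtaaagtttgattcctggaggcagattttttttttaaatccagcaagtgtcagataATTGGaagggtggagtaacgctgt
COL7A1, chr3:48595330-48595579, minus strand: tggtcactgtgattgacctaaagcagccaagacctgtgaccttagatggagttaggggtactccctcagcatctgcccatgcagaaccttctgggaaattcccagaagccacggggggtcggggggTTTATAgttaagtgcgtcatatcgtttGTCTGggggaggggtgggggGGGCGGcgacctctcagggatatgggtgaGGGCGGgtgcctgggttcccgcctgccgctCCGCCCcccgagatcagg
COL4A5, chrX:108439588-108439837, plus strand: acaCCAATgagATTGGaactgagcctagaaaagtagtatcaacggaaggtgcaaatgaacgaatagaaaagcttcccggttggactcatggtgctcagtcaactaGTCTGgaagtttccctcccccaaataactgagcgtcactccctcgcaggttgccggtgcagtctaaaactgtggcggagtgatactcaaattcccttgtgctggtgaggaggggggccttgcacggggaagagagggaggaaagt
COL12A1, chr6:75206054-75206303, minus strand: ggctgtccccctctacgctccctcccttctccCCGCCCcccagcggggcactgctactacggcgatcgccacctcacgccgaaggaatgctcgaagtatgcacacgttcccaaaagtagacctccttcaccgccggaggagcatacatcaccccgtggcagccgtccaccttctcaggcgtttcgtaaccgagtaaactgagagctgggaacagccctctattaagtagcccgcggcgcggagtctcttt
The COL17A1 stretch is 173 bases, since bases already inside the annotated gene were left out, and the others are 250. COL17A1 had 40.5% G and C and held TATAAA and CCAAT once each. COL7A1 held GGGCGG at 3 positions, TATAAA once and CAGAC once. COL4A5 held CCAAT at 2 positions and CAGAC once, and its stretch lies within the 379 bases between the RefSeq starts of COL4A5 and COL4A6. COL12A1 held GGGCGG once. Among 35116 upstream windows of 250 bases of all genes, 42.6% held GGGCGG, 32.0% CCAAT, 10.7% TATAAA and 38% CAGAC. Among 30 windows of the 23 tested collagen genes with an entry, the shares were 66.7%, 23.3%, 16.7% and 36.7% in the same order. These are letter matches only.

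The libraries held between 15.75 and 21.92 megacounts. SLC25A4, the targeted gene, was at 4.09 to 5.002 CPM (counts per megacount after TMM scaling) in knockout bleomycin and 4.81 to 6.97 CPM in knockout control libraries. The range was 16.1 to 27.5 CPM in wild type bleomycin and 16.6 to 22.8 CPM in wild type control libraries. Knockout control replicate 2 stood apart: 0.364% of its counts were mitochondrial, against 3.86% to 5.13% in the other 11 libraries. Collagen genes took 0.825% of its counts, against 0.295% to 0.477% in the other 11. Calls of the collagen genes and most of their fold changes in knockout cells are therefore also given without it. The airway epithelial markers summed to between 1396 and 1755 CPM in the 12 libraries, carried by KRT7, KRT8, KRT18 and KRT19. The general epithelial markers EPCAM and CDH1 were low, at 0.745 to 2.49 CPM and 0.489 to 2.96 CPM. KRT5, KRT14 and TP63 were at 0.917 CPM or less. The summed fibroblast list was at 215 to 230 CPM in knockout bleomycin libraries, against 381, 174 and 368 in knockout control replicates 1, 2 and 3. It was at 184 to 202 CPM in wild type bleomycin and 356 to 382 in wild type control libraries. Of its 7 genes, LUM had 0 counts in all 12 libraries and only 2, THY1 and PDGFRB, passed the low-count filter. The part of this list in the collagen results was not tested.

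Of the 44 collagen genes, 31 passed the filter on low counts, which asks for about 0.544 CPM without TMM scaling in at least 3 libraries. The 13 others were COL3A1, COL6A5, COL6A6, COL9A1, COL10A1, COL11A1, COL19A1, COL20A1, COL21A1, COL22A1, COL23A1, COL25A1 and COL28A1. COL3A1, the partner of type I collagen in many tissues, had 20 counts in all 12 libraries. Summed over the 13 genes, the counts were 122 in knockout bleomycin and 22 in knockout control libraries, and 163 for wild type bleomycin and 26 for wild type control libraries. Other genes under the filter were not summed, so this difference is not shown to be particular to collagen genes. COL2A1 and COL26A1 passed the filter only through the bleomycin libraries, so the filter itself favoured a higher value there. COL14A1 passed through 2 wild type bleomycin libraries and 1 wild type control library.

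Levels per length were taken from the deposited FPKM values (fragments scaled by gene length and library size). COL1A1, the main chain of type I collagen, had the highest mean of all collagen genes in knockout bleomycin (55.8 ± 11.5 FPKM), knockout control (160 ± 167) and wild type control libraries (92.6 ± 34.2; SD, n = 3 each). In wild type bleomycin libraries COL7A1 was first with 67.6 ± 11.5 FPKM and COL1A1 was next with 58.1 ± 1.67. In knockout bleomycin libraries COL7A1 was next to COL1A1 with 55.4 ± 7.20 FPKM, and the means differed by less than their SDs. Without knockout control replicate 2, the knockout control mean of COL1A1 was 64.0 FPKM, followed by COL12A1 at 55.9 and COL5A1 at 49.9. The gene ranked after COL1A1 in wild type control libraries was also COL12A1, at 65.7 ± 12.9 FPKM.

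**Figure D1:**
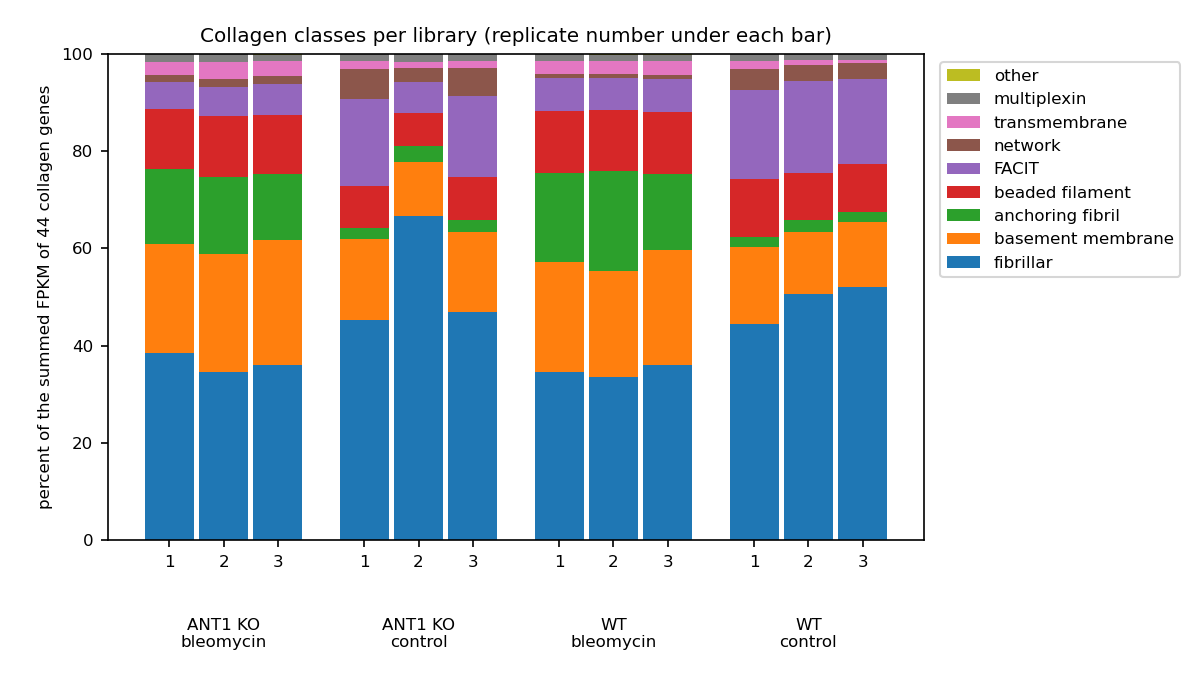
Share of each collagen class in the summed deposited FPKM of the 44 collagen genes (vertical axis, percent), 1 bar per library, grouped by genotype and medium. The anchoring fibril collagen COL7A1 takes 13.5% to 20.7% in the 6 bleomycin libraries and 2.09% to 3.34% in the 6 control libraries.

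By class, COL7A1, the single anchoring fibril gene, made up 13.5% to 15.8% of collagen FPKM in knockout bleomycin and 2.35% to 3.34% in knockout control libraries. In wild type cells its share was 15.6% to 20.7% with bleomycin and 2.09% to 2.43% in control medium. FACIT collagens, mostly COL12A1, made up 5.53% to 6.42% in knockout bleomycin libraries, against 18.0%, 6.41% and 16.6% in knockout control replicates 1, 2 and 3. The wild type values were 6.59% to 6.79% with bleomycin and 17.6% to 19.0% in control medium. Basement membrane collagens were at 22.3% to 25.8% in knockout bleomycin, 11.05% to 16.6% in knockout control, 21.7% to 23.5% in wild type bleomycin and 12.8% to 15.8% in wild type control libraries. Fibrillar collagens made up 34.7% to 38.5% in knockout bleomycin, 45.3% to 66.7% in knockout control, 33.6% to 36.1% in wild type bleomycin and 44.4% to 52.0% in wild type control libraries. Their summed level overlapped, at 118 to 157 FPKM in knockout bleomycin and 149 to 556 in knockout control, and at 125 to 135 in wild type bleomycin and 130 to 235 in wild type control libraries. Without replicate 2, the knockout control shares were 2.35% and 2.49% for COL7A1, 16.6% and 16.5% for basement membrane collagens and 45.3% and 46.99% for fibrillar collagens. The bleomycin and control libraries did not overlap in any of these shares within either genotype, apart from FACIT collagens in knockout cells, where replicate 2 of the controls fell inside the bleomycin range. The summed collagen FPKM itself overlapped: 341 to 406 in knockout bleomycin and 329 to 833 in knockout control (329 and 371 without replicate 2), and 352 to 389 in wild type bleomycin and 293 to 452 in wild type control libraries.

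In knockout cells, bleomycin raised 11 and lowered 8 of the 31 tested collagen genes (edgeR quasi-likelihood test, adjusted p under 0.05). Of all 16702 genes tested, 22.5% were called higher and 20.7% lower in that comparison. In wild type cells 13 collagen genes rose and 4 fell, against 23.9% and 19.6% of all genes. Without knockout control replicate 2, the counts were 15 higher and 6 lower in knockout cells, where 25.6% and 22.8% of all genes were called. For wild type cells that fit gave 15 higher and 5 lower, where 29.8% and 26.8% of all genes were called. All of these counts of higher collagen genes include COL2A1 and COL26A1. These genes passed the low-count filter only through the bleomycin libraries, which favoured a call of higher. The median log2 fold change of the tested collagen genes was 0.41 in knockout and 0.30 in wild type cells, against 0.00 and 0.02 over all genes. Without replicate 2 it was 0.81 in knockout and 0.30 in wild type cells, against 0.03 and 0.03 over all genes. In these bulk libraries, fewer cells of a kind and less RNA per cell cannot be told apart. Epithelial keratins were also called in these comparisons. KRT7 averaged 912 ± 28.1 CPM in knockout bleomycin and 580 ± 44.1 in knockout control, and 916 ± 73.1 in wild type bleomycin and 566 ± 85.4 in wild type control libraries. KRT19 averaged 61.95 ± 9.33 CPM in knockout bleomycin and 21.3 ± 6.90 in knockout control, and 62.2 ± 12.2 in wild type bleomycin and 17.9 ± 4.20 in wild type control libraries. KRT18 averaged 150.2 ± 15.4 CPM in knockout bleomycin and 287 ± 20.6 in knockout control, and 130.3 ± 16.3 in wild type bleomycin and 263 ± 37.2 in wild type control libraries (SD, n = 3 each). KRT7 and KRT19 were called higher and KRT18 and KRT8 lower with bleomycin in both genotypes (edgeR, largest adjusted p = 0.00886, for KRT8 in knockout cells). TP63, a marker of basal cells, was called higher in both at 0.917 CPM or less, and lost the knockout call without replicate 2 (edgeR adjusted p = 0.0863). With control libraries at 0 to 0.227 CPM, TP63 passed the low-count filter only through bleomycin libraries. The filter itself thus favoured a higher value there. CDH1 was called lower in knockout cells (edgeR adjusted p = 0.00535), EPCAM was not called, and KRT5 and KRT14 did not pass the low-count filter. The part of these markers in the collagen results was not tested.

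All 11 genes that rose in knockout cells were among the 13 that rose in wild type cells: COL2A1, COL4A5, COL4A6, COL7A1, COL9A3, COL15A1, COL16A1, COL17A1, COL24A1, COL26A1 and COL27A1. COL1A2 and COL5A3 were called higher in wild type cells, and in knockout cells too once replicate 2 was left out. The 4 genes that fell in wild type cells, COL5A2, COL8A1, COL8A2 and COL12A1, were among the 8 that fell in knockout cells. The other 4 called in knockout cells were COL1A1, COL4A4, COL9A2 and COL11A2. Leaving out replicate 2 ended the knockout calls of COL1A1 and COL11A2 and added COL1A2, COL5A3, COL6A1 and COL6A3 as higher. For wild type cells it added COL6A1 and COL13A1 as higher and COL11A2 as lower.

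**Figure D2:**
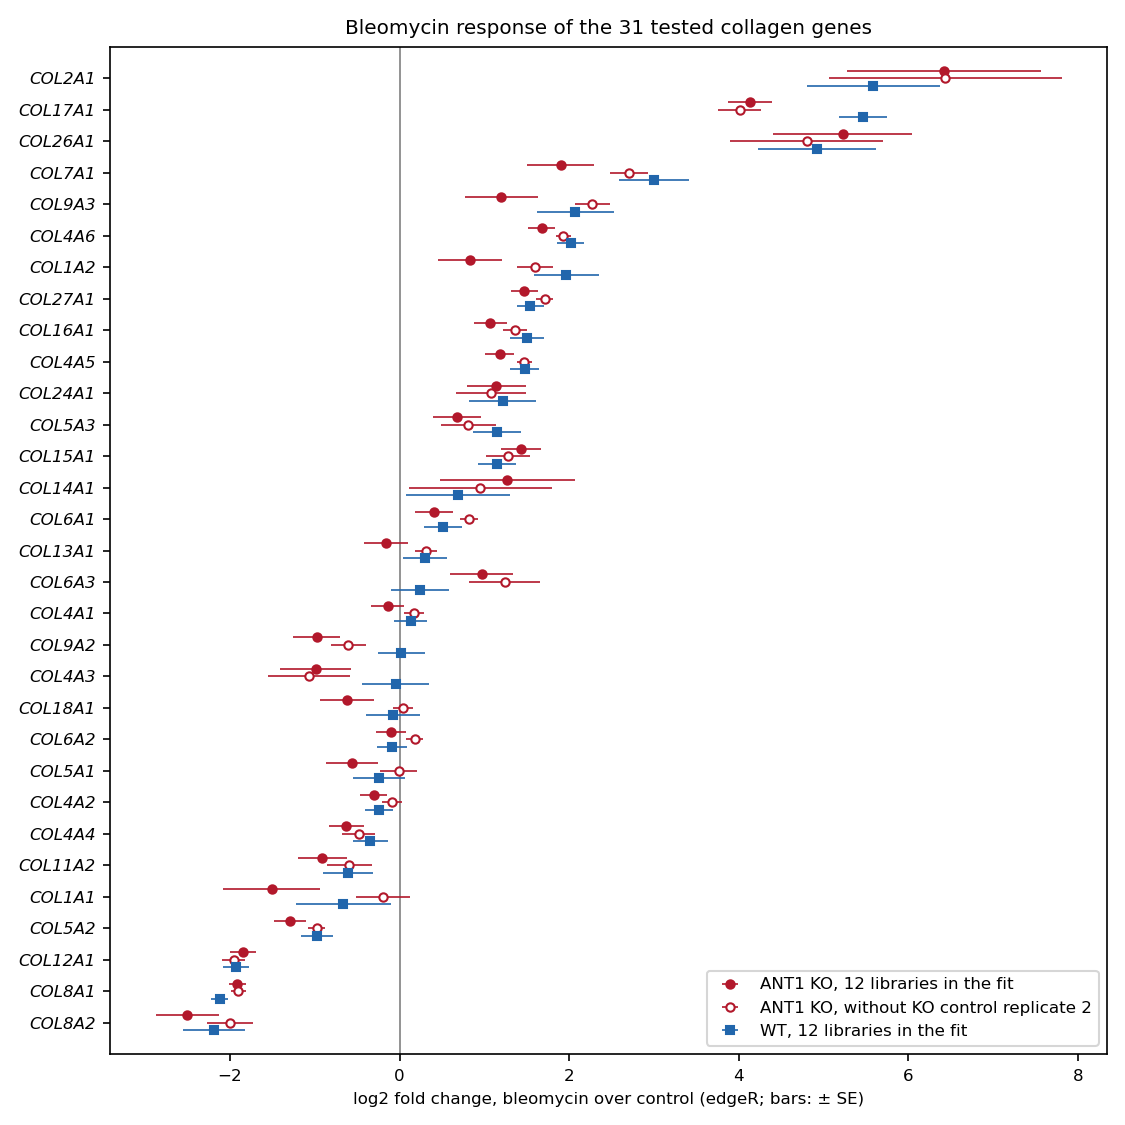
Log2 fold change of bleomycin over control (horizontal axis, edgeR, bars ± SE) for the 31 tested collagen genes, in ANT1 knockout cells with all 12 libraries in the fit (filled circles), without knockout control replicate 2 (open circles), and in wild type cells (squares). COL17A1 reads 4.13 in knockout and 5.46 in wild type cells, and COL8A1 reads -1.91 and -2.12.

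Collagen VII forms the anchoring fibrils of the epithelial basement membrane. COL7A1 (chr3:48564073-48595267) was at 63.2, 54.0 and 49.0 FPKM in knockout bleomycin libraries, against 7.74, 27.8 and 9.24 in knockout control libraries. Wild type libraries held it at 71.1, 76.98 and 54.8 FPKM with bleomycin, against 6.56, 9.54 and 9.45 in control medium. Bleomycin and control did not overlap in either genotype, and the single high control was knockout control replicate 2. The rise was 3.74-fold in knockout cells (log2 1.90, SE 0.40, edgeR adjusted p = 0.00213) and 7.99-fold in wild type cells (log2 3.00, SE 0.41, edgeR adjusted p = 9.25e-05). Without replicate 2 the rise in knockout cells was 6.55-fold.

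Collagen XVII is a hemidesmosome protein that holds basal epithelial cells to the basement membrane. COL17A1 (chr10:104031286-104085957) was at 4.64, 6.50 and 5.06 FPKM in knockout bleomycin and 0.341, 0.254 and 0.331 in knockout control libraries. Wild type libraries held it at 5.45, 6.20 and 4.79 FPKM with bleomycin and 0.202, 0.115 and 0.0534 in control medium. The rise was 17.5-fold in knockout (log2 4.13, SE 0.26, edgeR adjusted p = 4.66e-08) and 44.1-fold in wild type cells (log2 5.46, SE 0.28, edgeR adjusted p = 7.35e-09). In knockout cells it was 16.1-fold without replicate 2. The bleomycin levels of both genotypes overlapped, while every knockout control library lay above every wild type control library. Knockout over wild type in control medium gave a log2 difference of 1.31 (SE 0.33, edgeR adjusted p = 0.189), which did not pass. The difference in response was -1.33 on the log2 scale (SE 0.39, edgeR adjusted p = 0.899), and -1.45 without replicate 2 (edgeR adjusted p = 0.424). The wild type control counts summed to 53 over 3 libraries, which limits the precision of that fold.

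Of the 6 collagen IV genes, COL4A5 and COL4A6 rose in both genotypes and the others did not. COL4A5 was at 29.1, 27.8 and 29.8 FPKM in knockout bleomycin and 10.4, 17.6 and 10.5 in knockout control libraries, and at 32.8, 29.004 and 28.8 in wild type bleomycin and 9.64, 11.4 and 11.7 in wild type control libraries. COL4A6 was at 17.9, 17.2 and 18.6 FPKM in knockout bleomycin and 4.57, 7.51 and 4.83 in knockout control libraries, and at 21.5, 19.9 and 19.1 in wild type bleomycin and 4.46, 5.32 and 5.26 in wild type control libraries. No control library reached a bleomycin library for either gene. COL4A5 rose 2.27-fold in knockout and 2.78-fold in wild type cells (edgeR adjusted p = 0.000113 and 1.44e-05). COL4A6 rose 3.20-fold and 4.05-fold (edgeR adjusted p = 2.61e-06 and 3.76e-07). Without replicate 2 the rises in knockout cells were 2.77-fold for COL4A5 and 3.82-fold for COL4A6. These genes lie head to head on chromosome X with 346 bases between the annotated genes.

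The other head-to-head pairs did not rise. COL4A1 and COL4A2, the common chains of basement membranes, lie head to head on chromosome 13. COL4A1 was at 15.7 ± 1.59 FPKM in knockout bleomycin and 17.5 ± 6.01 in knockout control, and at 12.8 ± 0.633 in wild type bleomycin and 11.8 ± 2.05 in wild type control libraries. COL4A2 was at 25.9 ± 2.56 in knockout bleomycin and 32.2 ± 8.19 in knockout control, and at 20.0 ± 0.800 in wild type bleomycin and 23.8 ± 4.20 in wild type control libraries (SD, n = 3 each). Neither passed the test in either genotype. Their annotated genes overlap by 1422 bases and the use of strand in counting is not given, so reads of the overlap are uncertain. COL4A3 and COL4A4, chains of the kidney and lung basement membrane, lie 111 bases apart on chromosome 2. COL4A4 fell in knockout cells (log2 -0.63, SE 0.21, edgeR adjusted p = 0.0263), and lost the call without knockout bleomycin replicate 1 or 2 (up to edgeR adjusted p = 0.115). Without knockout control replicate 2 its change was -0.48 (SE 0.20, edgeR adjusted p = 0.0482). COL4A3 did not pass, on 150 counts in all 12 libraries.

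**Figure D3:**
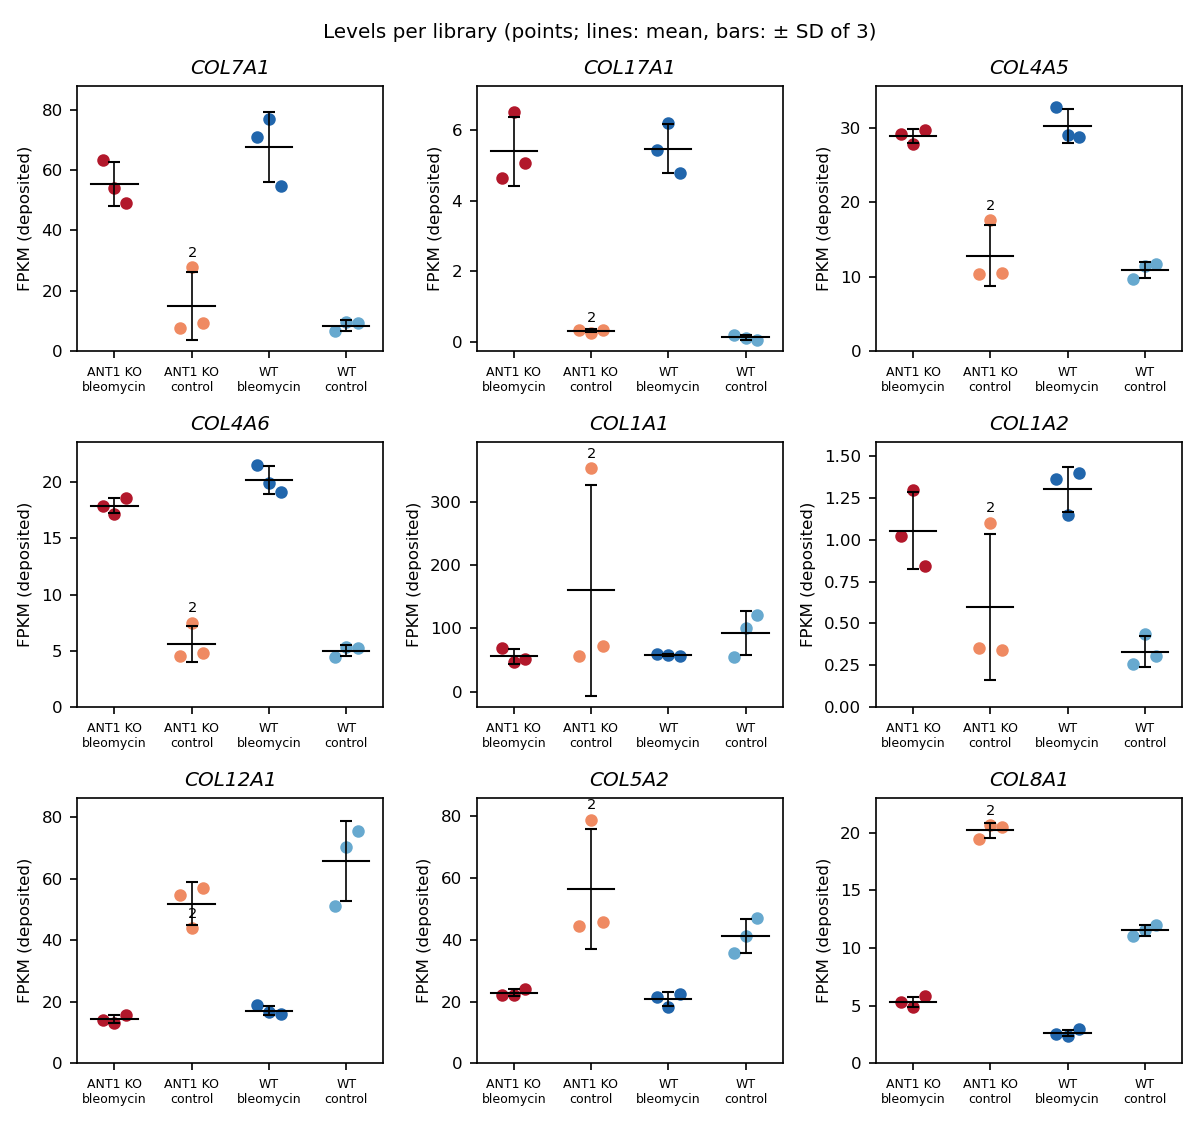
Deposited FPKM of 9 collagen genes per library (vertical axis; points, with the mean as a line and ± SD of 3 as bars), by group; knockout control replicate 2 carries the label 2. Its COL1A1 value of 352 FPKM is the highest point of that panel, and COL8A1 is higher in knockout than in wild type libraries in both media.

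Type I collagen is built from the chains of COL1A1 and COL1A2. COL1A1 was at 68.7, 46.8 and 51.9 FPKM in knockout bleomycin and 56.4, 352 and 71.6 in knockout control libraries. Wild type cells had it at 60.0, 57.5 and 56.8 FPKM with bleomycin and 55.0, 101 and 122 in control medium. The groups overlapped in both genotypes. The knockout call (log2 -1.51, SE 0.57, edgeR adjusted p = 0.0498) rested on replicate 2, without which the change was -0.19 (SE 0.32, edgeR adjusted p = 0.660). In all, 10 of the 12 fits that left out a library lost it, the exceptions being knockout control replicates 1 and 3. Wild type cells gave -0.66 (SE 0.56, edgeR adjusted p = 0.369). COL1A2 was at 1.02, 1.29 and 0.842 FPKM in knockout bleomycin and 0.356, 1.10 and 0.341 in knockout control libraries. Wild type libraries held it at 1.36, 1.15 and 1.39 FPKM with bleomycin and 0.255, 0.436 and 0.304 in control medium. It rose 3.92-fold in wild type cells (edgeR adjusted p = 0.00122). In knockout cells it gave 1.78-fold (edgeR adjusted p = 0.0916), and 3.03-fold without replicate 2 (edgeR adjusted p = 4.01e-06).

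The FPKM of COL1A1 was 55.0 ± 16.5 times that of COL1A2 in knockout bleomycin and 230 ± 82.7 times in knockout control libraries. In wild type cells it was 45.0 ± 4.79 times with bleomycin and 283 ± 102 times in control medium (SD, n = 3 each). No bleomycin library overlapped a control library. The size of such a ratio depends on the gene length used: with the longest coding transcript of each gene, the means were 38.9, 163, 31.9 and 200 in the same order of groups. The ratio of COL4A5 to COL4A6 was 1.61 ± 0.0109 in knockout bleomycin and 2.27 ± 0.0866 in knockout control libraries, and 1.496 ± 0.0352 for wild type bleomycin and 2.18 ± 0.0400 for wild type control libraries. COL6A1 over COL6A2 was 2.44 ± 0.0835 in knockout bleomycin and 1.67 ± 0.211 in knockout control libraries, and 2.16 ± 0.0206 for wild type bleomycin and 1.42 ± 0.0902 for wild type control libraries. COL9A3 over COL9A2 was 1.37 ± 0.329 in knockout bleomycin and 0.263 ± 0.139 in knockout control libraries, and 1.18 ± 0.274 for wild type bleomycin and 0.286 ± 0.0590 for wild type control libraries. In knockout control replicates 1 and 3, COL1A1 over COL1A2 was 158 and 209.9, COL4A5 over COL4A6 2.28 and 2.17, COL6A1 over COL6A2 1.46 and 1.66, and COL9A3 over COL9A2 0.215 and 0.154. The ratios were not tested, and reads where COL9A3 overlaps the annotated gene TCFL5 are uncertain.

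**Figure D4:**
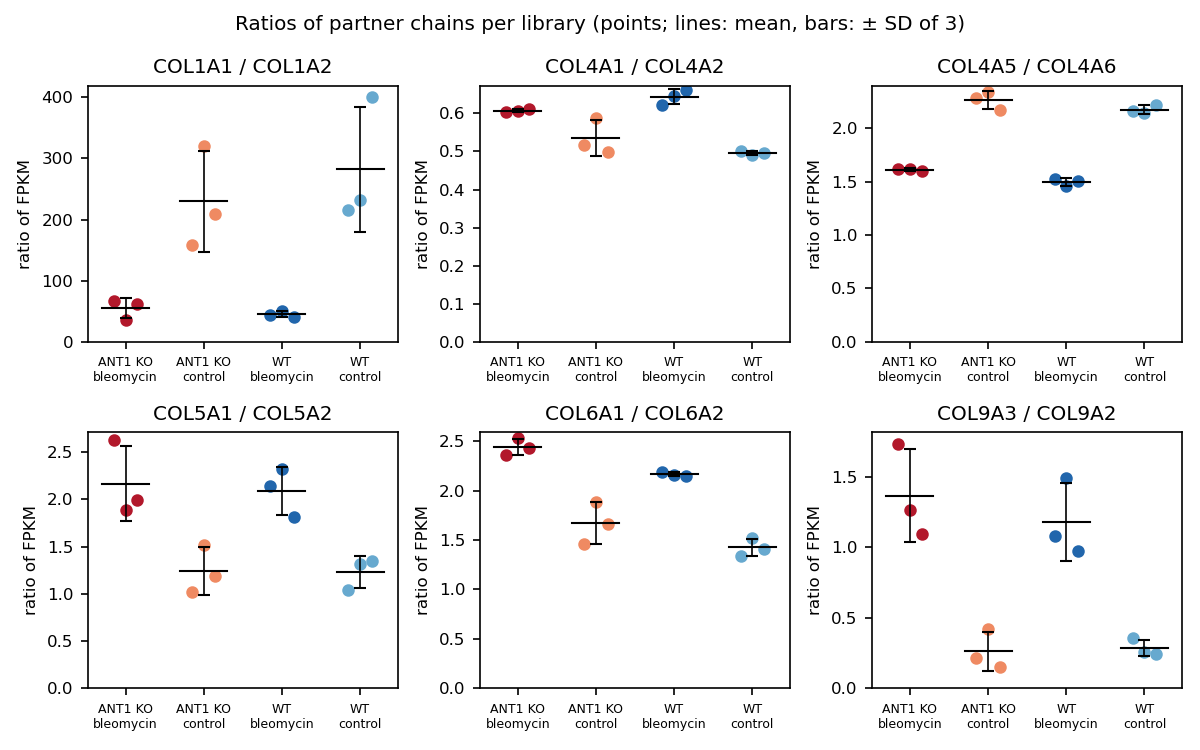
Ratio of the deposited FPKM of 2 partner chains (vertical axis) per library for 6 pairs of collagen genes, by group, with the mean as a line and ± SD of 3 as bars. COL1A1 over COL1A2 averages 55.0 in knockout bleomycin and 230 in knockout control, and 45.0 in wild type bleomycin and 283 in wild type control libraries.

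Among the other fibrillar genes, COL5A2, a chain of the fibril-nucleating type V collagen, fell. It was at 22.2, 22.2 and 24.1 FPKM in knockout bleomycin and 44.6, 78.9 and 45.7 in knockout control libraries. Wild type libraries held it at 21.6, 18.2 and 22.6 FPKM with bleomycin and 35.7, 41.1 and 46.9 in control medium. The groups did not overlap, and the falls were 2.45-fold in knockout and 1.97-fold in wild type cells (edgeR adjusted p = 0.000142 and 0.00103). The knockout fall was 1.97-fold without replicate 2. Its partner COL5A1, at 49.4 ± 8.29 FPKM in knockout bleomycin and 73.1 ± 40.5 in knockout control libraries and 43.1 ± 2.65 for wild type bleomycin and 51.4 ± 13.3 for wild type control libraries (SD, n = 3 each), did not pass in either genotype. COL27A1 rose 2.77-fold in knockout and 2.91-fold in wild type cells (edgeR adjusted p = 9.00e-06 and 4.73e-06). COL24A1 rose 2.21-fold and 2.32-fold (edgeR adjusted p = 0.0175 and 0.0230). Without replicate 2 the knockout values were 3.27-fold for COL27A1 and 2.11-fold for COL24A1. It had 198 counts in all 12 libraries, and the call was not firm. It was lost in knockout cells without knockout bleomycin replicate 1 or control replicate 3 (edgeR adjusted p up to 0.0698). In wild type cells it was lost without bleomycin replicate 1 or control replicate 1 (edgeR adjusted p up to 0.143). COL5A3 rose 2.22-fold in wild type cells (edgeR adjusted p = 0.00517) and gave 1.61-fold in knockout cells (edgeR adjusted p = 0.0674). Its knockout value was 1.76-fold without replicate 2 (edgeR adjusted p = 0.0405). COL11A2 fell in knockout cells (log2 -0.91, SE 0.29, edgeR adjusted p = 0.0208) but gave edgeR adjusted p = 0.0769 without replicate 2 and also lost the call without knockout bleomycin replicate 2 or 3.

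COL2A1, the cartilage collagen, was called higher on few reads. It had 5, 18 and 8 counts in knockout bleomycin libraries and 0 in each knockout control library, which makes it at least 9.94-fold higher if 3 counts in the whole control group are taken as the floor. Wild type libraries had 62 counts with bleomycin and 1 in control medium, a ratio of 67.2 (95% exact interval 11.6 to 2696). COL26A1 had 52 counts in knockout bleomycin and 1 in knockout control libraries, a ratio of 50.002 (95% exact interval 8.59 to 2012). It had 67 counts in wild type bleomycin and 2 in wild type control libraries, a ratio of 36.3 (9.66 to 306). These intervals and floors cover counting error only.

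Collagen XII is a FACIT that decorates collagen I fibrils. COL12A1 (chr6:75084326-75206051) was at 14.2, 13.2 and 15.6 FPKM in knockout bleomycin and 54.8, 43.9 and 57.1 in knockout control libraries. Wild type libraries held it at 18.8, 16.8 and 15.9 FPKM with bleomycin and 51.2, 70.4 and 75.6 in control medium. The groups were far apart in both genotypes. The fall was 3.59-fold in knockout (log2 -1.85, SE 0.15, edgeR adjusted p = 6.58e-07) and 3.81-fold in wild type cells (log2 -1.93, SE 0.15, edgeR adjusted p = 3.50e-07). COL16A1, another FACIT, rose 2.10-fold and 2.83-fold (edgeR adjusted p = 0.000730 and 4.71e-05). Without replicate 2 the knockout values were a fall of 3.88-fold for COL12A1 and a rise of 2.57-fold for COL16A1. COL9A3, a chain of collagen IX, rose 4.21-fold in wild type cells (edgeR adjusted p = 0.00254). In knockout cells it rose 2.30-fold (edgeR adjusted p = 0.0399), and 4.83-fold without replicate 2 (edgeR adjusted p = 7.94e-09). Leaving out any of 8 other libraries ended that call in knockout cells (edgeR adjusted p up to 0.119), all but knockout bleomycin replicate 3, wild type bleomycin replicate 2 and wild type control replicate 1. The annotated gene of COL9A3 overlaps TCFL5, which had 6369 counts in all 12 libraries. The use of strand in counting is not given, so reads of that overlap are uncertain. COL9A2 fell in knockout cells (log2 -0.98, SE 0.28, edgeR adjusted p = 0.0123), and the change was -0.60 without replicate 2. Its difference in response between the genotypes was -0.996 (SE 0.39, edgeR adjusted p = 0.899). COL14A1 did not pass.

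Among the remaining classes, COL15A1, a basement membrane zone multiplexin, rose 2.69-fold in knockout and 2.22-fold in wild type cells (edgeR adjusted p = 0.000303 and 0.00101), and 2.43-fold in knockout cells without replicate 2. COL18A1, whose end is cleaved to endostatin, did not pass, nor did the transmembrane COL13A1 in the fit of 12 libraries. The annotated gene of COL18A1 overlaps SLC19A1, which had 7755 counts, so its reads of that overlap are uncertain. Of collagen VI, which forms beaded filaments, no gene passed with all 12 libraries. COL6A1 was at 32.2 ± 2.46 FPKM in knockout bleomycin and 24.5 ± 10.8 in knockout control libraries, and at 32.2 ± 1.68 in wild type bleomycin and 22.7 ± 3.02 in wild type control libraries (SD, n = 3 each). Without replicate 2 it rose 1.76-fold in knockout and 1.43-fold in wild type cells (edgeR adjusted p = 4.63e-06 and 0.000123). COL6A3, whose chain is the largest of collagen VI, was at or below 0.107 FPKM in every library, while COL6A1 was at 16.7 FPKM or more.

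Both genes of collagen VIII, a short-chain network collagen, fell with bleomycin. COL8A2 was at 0.414, 0.395 and 0.231 FPKM in knockout bleomycin and 1.20, 3.17 and 1.57 in knockout control libraries. Wild type cells had it at 0.306, 0.376 and 0.5002 FPKM with bleomycin and 1.66, 1.45 and 2.35 in control medium. It fell 5.66-fold in knockout and 4.57-fold in wild type cells (edgeR adjusted p = 0.000163 and 0.000330), and 3.999-fold in knockout cells without replicate 2. Genotype was not called for COL8A2, with log2 differences of -0.19 under bleomycin and 0.12 in control medium (edgeR adjusted p = 0.999 and 0.895), the second of which was -0.38 without replicate 2. COL8A1 (chr3:99638475-99799226) was at 5.29, 4.88 and 5.80 FPKM in knockout bleomycin and 19.4, 20.7 and 20.5 in knockout control libraries. Wild type libraries held it at 2.56, 2.40 and 2.94 FPKM with bleomycin and 11.004, 11.5 and 12.007 in control medium. The groups formed 4 levels without overlap: knockout control, wild type control, knockout bleomycin and wild type bleomycin, from high to low. The fall was 3.76-fold in knockout and 4.35-fold in wild type cells (edgeR adjusted p = 7.48e-09 and 2.58e-09), and 3.73-fold in knockout cells without replicate 2.

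Knockout cells held more COL8A1 than wild type cells in both media. Under bleomycin the log2 difference was 1.02 (SE 0.10, edgeR adjusted p = 0.000904), and COL8A1 was the 1 collagen gene called and the 1 gene called higher of 8 genes called in all, 0.0479% of those tested. In control medium it was 0.81 (SE 0.09, edgeR adjusted p = 0.0111), with 1 collagen gene called where 0.168% of all genes were. The control call was lost when any 1 of the 3 wild type control libraries was left out (edgeR adjusted p up to 0.0698) and when only the 2 groups compared were fitted. The call under bleomycin remained without any 1 of the 12 libraries, with edgeR adjusted p up to 0.0182. Without knockout control replicate 2, COL8A1 was called in both media, where 1.71% of all genes were called under bleomycin and 1.02% in control medium. That fit also called COL6A2 lower in knockout control libraries (log2 -0.44, SE 0.10, edgeR adjusted p = 0.0395).

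The bleomycin response of the collagen genes was not shown to differ between the genotypes. With all 12 libraries 0 of 31 collagen genes were called, and 0% of all genes were, by edgeR at an adjusted p under 0.05. At an unadjusted p under 0.05, edgeR gave 2 collagen genes and 770 genes in all, and DESeq2 gave 3 collagen genes with 0 called. Without replicate 2 again 0 of 31 were called, with 0.0523% of all genes. The difference for COL7A1 was -1.09 on the log2 scale (SE 0.54) with all 12 libraries and -0.28 (SE 0.27) without replicate 2. For COL8A1 it was 0.21 (SE 0.13).

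Knockout control replicate 2 held more mRNA of most collagen genes than the other 2 knockout control libraries. It was above both for 22 of the 31 tested collagen genes (71.0%), against 44.6% of all genes tested. It was the highest of all 12 libraries for 14 of the 31 (45.2%), against 26.0% of all genes tested. COL1A1 was 5.50 times, COL9A3 3.76 times and COL7A1 3.26 times the mean of the other 2 (CPM with 0.5 added). COL15A1, COL12A1 and COL17A1 were below it. Transcripts of the tested collagen genes had a median of 60.3% G and C, against 49.1% over 13435 genes. Across those genes the Spearman correlation of G and C content with the log2 ratio of replicate 2 to the other 2 was 0.345. Genes are not independent replicates, and the part of base composition in the collagen values of this library was not tested.

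**Figure D5:**
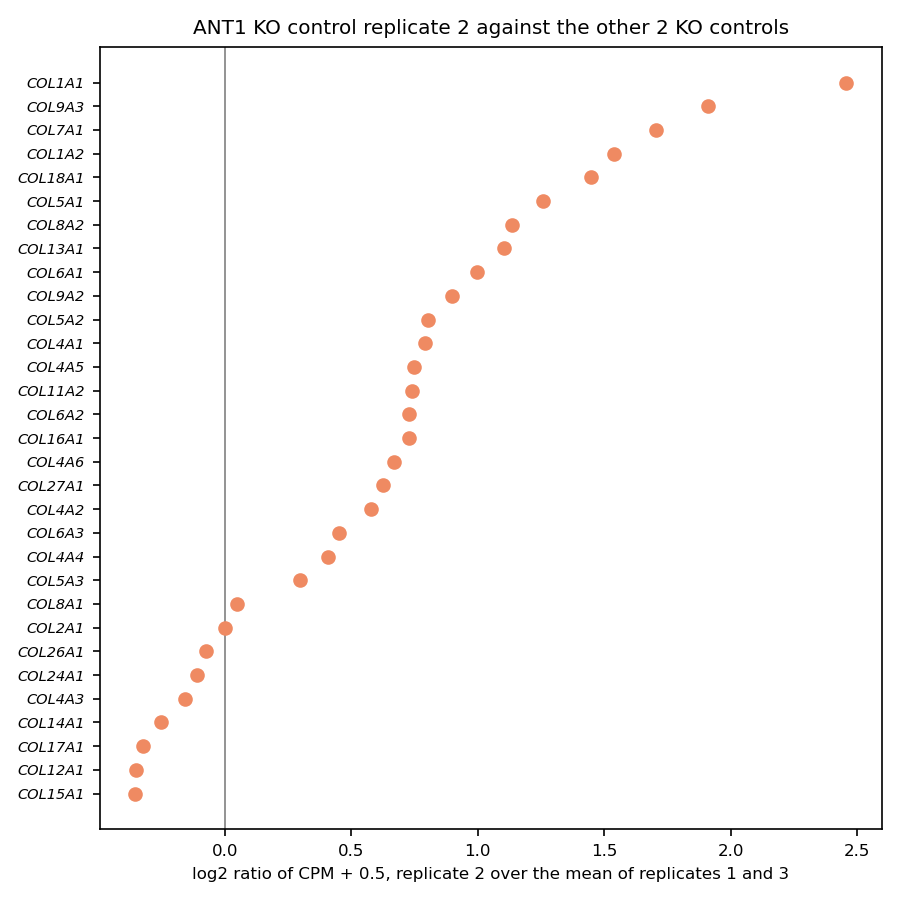
Log2 ratio (horizontal axis) of CPM plus 0.5 in ANT1 knockout control replicate 2 over the mean of knockout control replicates 1 and 3, 1 point for each of the 31 tested collagen genes. The ratios run from -0.36 for COL15A1 to 2.46 for COL1A1, with a median of 0.73.

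Genes that make, bind and cut collagen were counted in 3 lists, beside 22.5% of all tested genes called higher and 20.7% lower in knockout cells, and 23.9% and 19.6% in wild type cells. Of 38 genes of collagen biosynthesis and processing, 37 were tested: 7 rose and 9 fell with bleomycin in knockout cells, and 11 rose and 12 fell in wild type cells. These are 18.9% and 24.3% of the tested genes in knockout and 29.7% and 32.4% in wild type cells. Without knockout control replicate 2, 11 rose and 9 fell in knockout cells, and 17 rose and 13 fell in wild type cells, against shares of all genes of 25.6% and 22.8% in knockout and 29.8% and 26.8% in wild type cells. Their median log2 fold change was 0.04 in knockout and 0.18 in wild type cells. TLL2, named here for its low counts, is among the genes counted as higher in both genotypes. It was at 0.598 to 1.72 CPM in bleomycin libraries and at 0 to 0.162 CPM in control libraries. It thus passed the low-count filter only through the bleomycin libraries, which favoured a higher value there. PLOD2, a lysyl hydroxylase of collagen crosslinking, was at 561 ± 23.6 CPM in knockout bleomycin and 1176 ± 36.5 in knockout control libraries, and at 623 ± 36.6 in wild type bleomycin and 1394 ± 38.7 in wild type control libraries. It fell in both genotypes (edgeR adjusted p = 4.73e-07 and 1.70e-07). P4HA1, a subunit of prolyl 4-hydroxylase, was at 70.8 ± 5.55 CPM in knockout bleomycin and 159 ± 11.7 in knockout control libraries, and at 69.3 ± 5.85 in wild type bleomycin and 161 ± 16.3 in wild type control libraries (SD, n = 3 each), and fell likewise (edgeR adjusted p = 1.71e-06 and 8.39e-07). ADAMTS3, a procollagen protease, fell 3.85-fold and 4.26-fold (edgeR adjusted p = 2.96e-06 in knockout and 1.26e-06 in wild type cells). KLHL12, an adaptor for the large transport vesicles of procollagen, rose 1.75-fold and 1.76-fold (edgeR adjusted p = 8.94e-06 and 6.16e-06).

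Of 10 collagen receptor genes 8 were tested: 2 rose and 1 fell in knockout cells, and 3 rose and 2 fell in wild type cells, with median log2 fold changes of 0.26 and 0.44. Without replicate 2, 2 rose and 2 fell in knockout cells, and 3 rose and 3 fell in wild type cells. With 8 genes, 1 call is 12.5% of the list. ITGA2, the alpha chain of a collagen-binding integrin of epithelia, was at 130 ± 4.63 CPM in knockout bleomycin and 20.1 ± 3.85 in knockout control libraries, and at 174 ± 19.9 in wild type bleomycin and 18.1 ± 2.60 in wild type control libraries (SD, n = 3 each). It rose in both genotypes (edgeR adjusted p = 1.82e-08 and 2.66e-09). ITGA1, the alpha chain of another, fell 2.25-fold in knockout and 2.03-fold in wild type cells (edgeR adjusted p = 7.43e-05 and 0.000188). The receptor kinase DDR1 rose 1.34-fold and 1.51-fold (edgeR adjusted p = 0.0115 and 0.00119), and DDR2 rose 1.76-fold in wild type cells (edgeR adjusted p = 0.00643).

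Of 9 genes of collagen-cleaving proteases 7 were tested: 3 rose and 2 fell in knockout cells, and 3 rose and 1 fell in wild type cells, with median log2 fold changes of 0.08 and 0.03. The counts were the same without replicate 2, and with 7 genes a single call is 14.3% of the list. MMP1, the interstitial collagenase, was at 67.2 ± 9.12 CPM in knockout bleomycin and 5.25 ± 1.53 in knockout control libraries, and at 117 ± 16.0 in wild type bleomycin and 7.30 ± 3.74 in wild type control libraries, a rise in both genotypes (edgeR adjusted p = 1.20e-06 and 3.65e-07). MMP14, a membrane collagenase, rose 2.52-fold in knockout and 2.80-fold in wild type cells (edgeR adjusted p = 7.33e-08 and 2.18e-08). MMP2, a gelatinase, was at 59.1 ± 5.59 CPM in knockout bleomycin and 167 ± 5.75 in knockout control libraries, and at 94.4 ± 7.42 in wild type bleomycin and 245 ± 36.2 in wild type control libraries (SD, n = 3 each). It fell in both genotypes (edgeR adjusted p = 3.47e-07 and 5.82e-07). MMP8, a neutrophil collagenase, was also called higher in both genotypes, but passed the low-count filter only through 4 bleomycin libraries. It had 24 counts in knockout bleomycin and 0 in knockout control libraries. For wild type cells the counts were 38 with bleomycin and 1 in control medium.

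Of the 52 tested genes of these 3 lists, 0 passed for genotype in either medium with all 12 libraries by edgeR. At an unadjusted p under 0.05 there were 8 under bleomycin and 9 in control medium, and DESeq2 called 2 and 1. Over all 16702 genes, edgeR gave 1103 under bleomycin and 1661 in control medium at an unadjusted p under 0.05, and DESeq2 called 84 and 175. Without knockout control replicate 2, MMP2 was called lower in knockout cells under bleomycin (log2 -0.67, SE 0.10, edgeR adjusted p = 0.00160) and in control medium (log2 -0.56, SE 0.11, edgeR adjusted p = 0.0146). Under bleomycin LOX, a crosslinking oxidase named here after its values were seen, was then called 1.37-fold higher and ITGA2 1.34-fold lower in knockout cells (edgeR adjusted p = 0.00237 and 0.0215).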

How the data were processed

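Poly(A)-selected RNA of 12 Beas-2b libraries was sequenced. The submitters' processing notes name HISAT2 2.0.5 and featureCounts 1.5.0-p3. Build and strand setting are not given in the sources used here. The authors deposited raw counts and FPKM values for 58735 genes, whose positions all equal GENCODE 29 on GRCh38. The deposited counts were tested with edgeR 4.0.16 (R 4.3.3): filterByExpr, TMM, glmQLFit (robust), a single fit of all 12 libraries, 5 contrasts (among them knockout response minus wild type response), Benjamini-Hochberg over all 16702 genes tested, threshold 0.05. P-values measure the spread between the deposited replicates. SE is the absolute log2 fold change over the square root of F. Deposited FPKM served as level per length. The test was tried on simulated data. The collagen genes, the gene lists and the rule for named genes (every tested collagen gene, and up to 4 called genes per list with the smallest adjusted p) were chosen with earlier results of these data known. Alternatives were RLE scaling, DESeq2 1.42.0, no filter, a replicate block, only the groups compared, and leaving out each library. Transcript lengths for the chain ratios were added after seeing the data.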

Additional observations from a re-analysis of the deposited data

How the results depend on the processing

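The counts of genes called for bleomycin stayed within 1.5 times under every alternative: 15 to 21 collagen genes in knockout and 16 to 20 in wild type cells over the 12 fits that left out a library, and 5866 to 8319 and 6076 to 9743 genes in all. The genotype counts over all genes moved. Under bleomycin, where 8 genes were called, DESeq2 called 84, the fit without a low-count filter 81 and the fit of only the groups compared 312, and leaving out a library gave 2 to 294. In control medium, where 28 genes were called, the same settings gave 175, 321, 0 and 0 to 175. The interaction gave 4 genes with DESeq2, 13 without the filter and 0 to 9 with a library left out. Of the collagen genes, the groups compared alone gave 3 calls for genotype under bleomycin and 0 in control medium. In control medium DESeq2 gave 2, the unfiltered fit 8 and the fits with a library left out 0 to 2. The unfiltered fit gave 1 collagen call for the interaction. The cause was not tested.

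In the bleomycin comparisons, directions turned only for genes that were not called. In knockout cells, log2 changes with a library left out ran from -0.31 to 0.17 for COL4A1, -0.25 to 0.18 for COL6A2, -0.37 to 0.31 for COL13A1 and -0.89 to 0.039 for COL18A1, positive only without knockout control replicate 2. In wild type cells they ran from -0.28 to 0.24 for COL4A3, -0.15 to 0.016 for COL6A2, -0.19 to 0.15 for COL9A2 and -0.18 to 0.018 for COL18A1, and the unfiltered fit gave -0.0041 for COL9A2.

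The replicate numbers gave little sign of pairing: 1 of 18 same-numbered pairs correlated above 0.1, and 1 of 12 libraries correlated best with its own number. The correlations used deviations from group means of 3 libraries, so they cannot show that pairing was absent. The fit with the replicate number as a block called 4 genes for genotype under bleomycin and 11 in control medium. It left the counts of collagen genes called at 19, 17, 1, 1 and 0. A count of 0 in a library allows up to 0.137 to 0.190 CPM without TMM scaling.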
